A study of Mus musculus with 60 samples.

Results

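The 10 genes described here build the perineuronal net and the wider hyaluronan matrix of the brain, and their RNA was followed in the dentate gyrus (DG) of the mouse hippocampus. They were taken by name from the 46480 genes in the count tables for their part in this matrix, a choice made with earlier results of these data known. The list holds the lectican proteoglycans aggrecan (Acan), brevican (Bcan), neurocan (Ncan) and versican (Vcan), the link proteins Hapln1 and Hapln4, the tenascins Tnr and Tnc, and the hyaluronan synthases Has2 and Has3. All 10 had enough counts to be among the 17040 genes tested.

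Tissue was punched from frozen dorsal and ventral DG of male C57BL6J mice at age 80 days, so each sample holds every cell type of the punch and pools tissue of several mice. The mice had been weaned on day 22 and then lived for 8 weeks either in standard housing (SH), with 3 males to a cage, or in an enriched environment (EE), with 12 males in a large cage with running wheels and changing toys. Total RNA libraries that keep the strand were sequenced, and the fragments on genes ranged from 22919364 to 28301861 per library (median 25816352). Replicate 3 of standard housing was left out in both regions, because the study dropped an SH pool for its high level of Xist, an RNA of female cells, although all labels say male; this leaves 4 SH and 5 EE samples per region, 18 in all. The study describes dorsal and ventral samples taken from the same mice. No label says which ones, so samples of the same housing and number are taken to match. Each such pair is called a pool here, of which there are 9.

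In the perineuronal net, long hyaluronan chains made by membrane synthases carry lecticans, link proteins clamp the lecticans to the hyaluronan, and tenascin-R ties the lecticans together at their other end. The dense form of this lattice surrounds the cell body and proximal dendrites of certain neurons, best known around parvalbumin interneurons, and its maturation goes with the closing of periods of high plasticity. A looser form of the same matrix fills the space around synapses and glia throughout the hippocampus. Aggrecan and the link proteins are regarded as the parts that a compact net needs, while brevican and neurocan are also widespread in the loose matrix, much of them made by astrocytes, and versican and brevican transcripts occur in the oligodendrocyte lineage.

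The labelled tissue was checked against its markers before the comparisons. Prox1, the transcription factor that defines granule cells, lay at 208 to 274 CPM (counts scaled to library size) in every dorsal sample and at 105 to 146 CPM in every ventral sample, so granule cell RNA was present in both regions. Other cell types were present as well. Pvalb, which defines the interneurons that most often carry nets, lay between 13.2 and 24.9 CPM, the astrocyte marker Aqp4 between 256 and 316 CPM and the oligodendrocyte marker Mbp between 774 and 1377 CPM. Choroid plexus markers stood apart: the 12 genes summed to between 402 and 1474 CPM in ventral samples and between 25.7 and 72.7 CPM in dorsal samples, except in dorsal SH replicate 1, where they reached 220 CPM. In whole tissue, fewer cells of a type and less RNA per cell cannot be told apart.

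Levels per length spread the genes over a wide range. On the TPM scale, which divides by transcript length and total, brevican was highest in all 4 groups, with a mean of 41.2 ± 5.02 (SD, n = 4) in dorsal SH, 33.8 ± 1.95 (n = 5) in dorsal EE and 35.6 ± 3.59 (n = 4) in ventral SH. Brevican alone gave 43.2% of the summed TPM of the 10 genes in dorsal SH and 46.6% in ventral SH. Neurocan followed with 22.5 ± 3.81 TPM in dorsal SH, then Tnr with 17.8 ± 3.89, and the ranges of these neighbours overlapped there (17.0 to 25.5 against 12.4 to 21.0 TPM).

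The link proteins came next in dorsal SH, Hapln4 at 5.6 ± 1.44 and Hapln1 at 4.48 ± 0.799 TPM, with overlapping ranges. Tnc at 1.46 ± 0.248 and Vcan at 1.41 ± 0.246 TPM could not be ordered either. Aggrecan was far down the order, at 0.655 ± 0.132 TPM in dorsal SH, and the hyaluronan synthases were last, Has3 at 0.233 ± 0.0465 and Has2 at 0.0425 ± 0.0287 TPM. Among the lecticans, aggrecan was thus the lowest and brevican the highest. The order changed between groups only for Tnc and Vcan, and the gap between Tnr and Hapln4, which was wide in dorsal SH, closed in ventral SH, where Tnr had 9.11 ± 2.3 and Hapln4 6.8 ± 1.52 TPM with overlapping ranges.

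**Figure D1:**
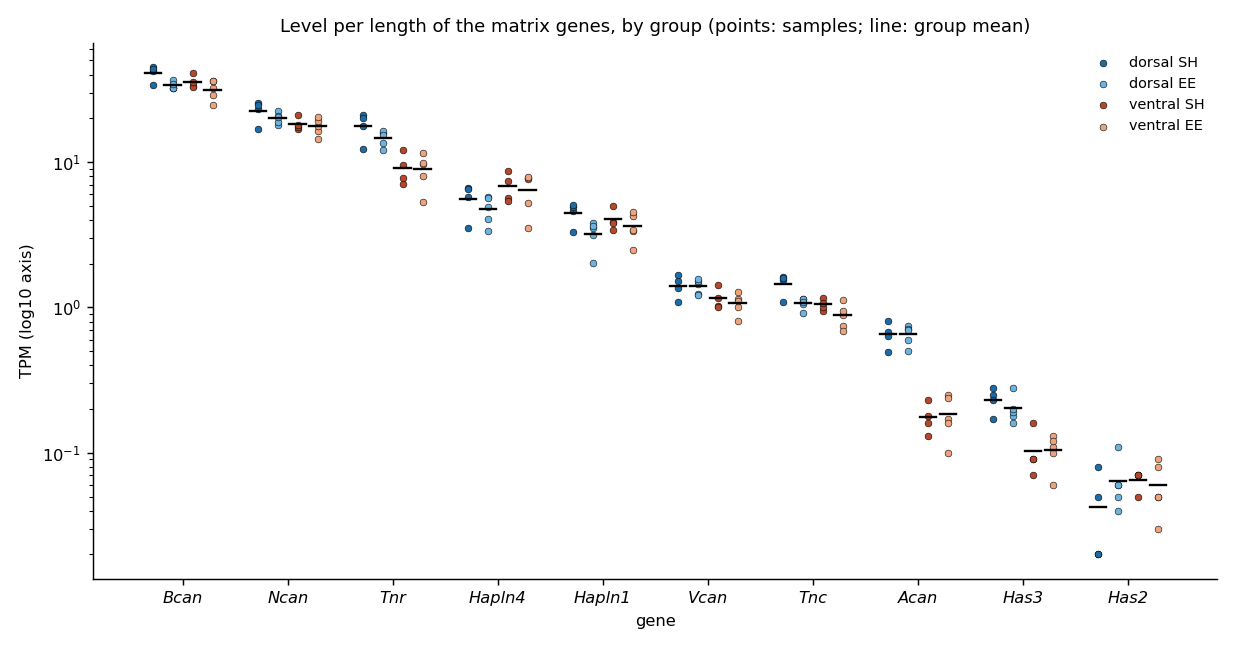
TPM of each gene (log10 axis) in the 18 samples, coloured by group, with a line at each group mean. Brevican is highest in every group, and Acan, Has3 and Tnr sit lower in the ventral groups than in the dorsal groups.

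The first comparison asked how the matrix differs along the long axis of the DG. It set the mean of the SH and EE dorsal-minus-ventral differences against zero with edgeR's quasi-likelihood test and Benjamini-Hochberg adjustment over the 17040 genes, and a gene was called at an adjusted p under 0.05 and a change of at least 20%. Of the 10 genes 4 were called: Acan, Has3 and Tnr were higher in dorsal DG, and Hapln4 was higher in ventral DG. Regional differences were common in this tissue, so the count is not particular to the matrix: 32.7% of all tested genes were called, 15.9% as higher in dorsal and 16.8% as higher in ventral DG. The size of the Acan difference was less common, since 1.97% of the tested genes were called with a dorsal level more than 2-fold above the ventral one. The median absolute log2 difference was 0.32 for the 10 genes and 0.19 for all tested genes.

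**Figure D2:**
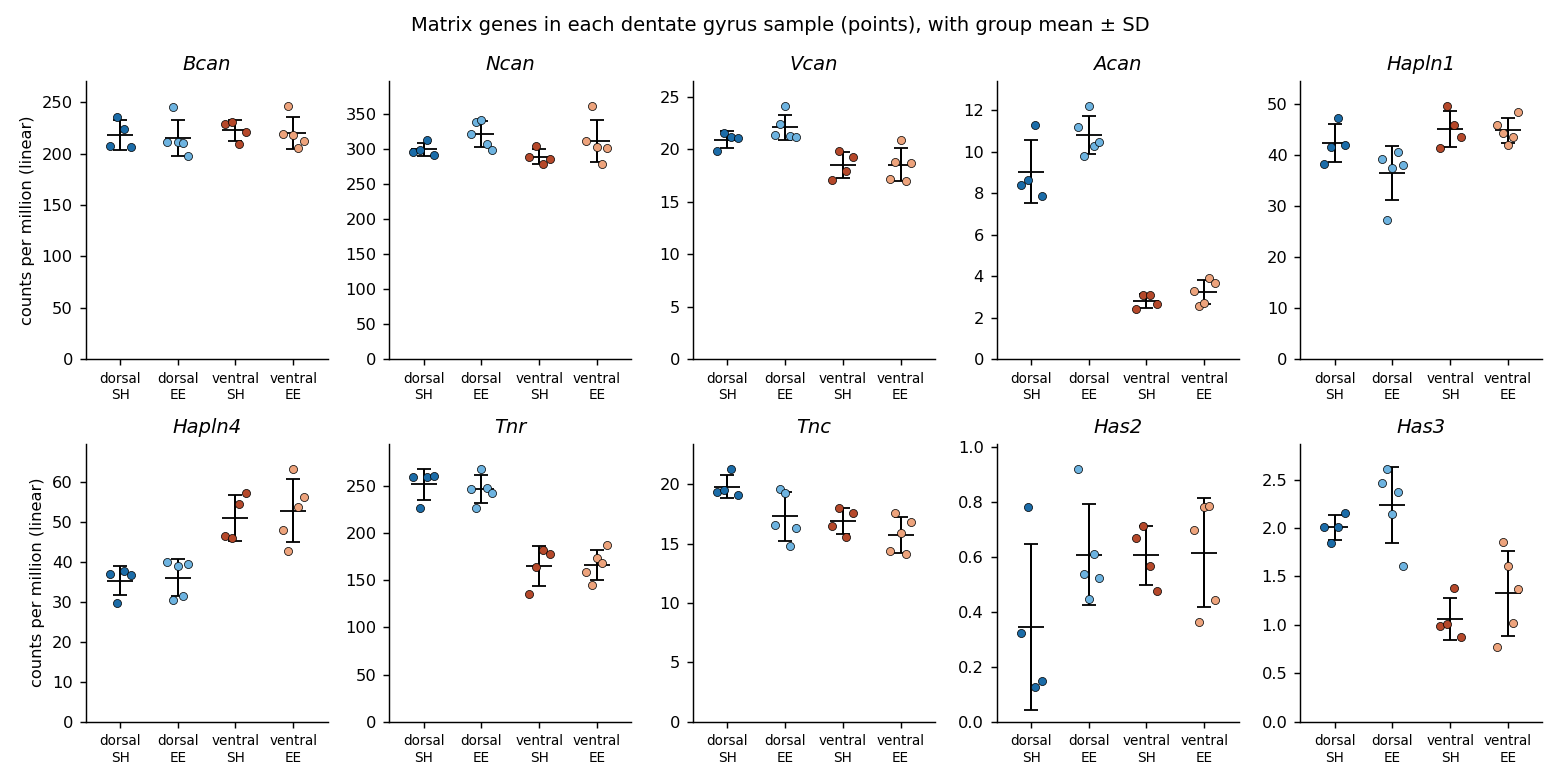
CPM (linear axes from 0) of the 10 genes in the 18 samples, with group means and SD. Acan and Tnr are higher in every dorsal than in every ventral sample, Hapln4 is lower in every dorsal sample, and the housing groups of each region overlap for all genes.

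Aggrecan, the lectican with the most chondroitin sulfate chains, had 8.39, 8.64, 11.3 and 7.86 CPM in dorsal SH replicates 1, 2, 4 and 5, and 11.2, 9.82, 12.2, 10.3 and 10.5 CPM in dorsal EE replicates 1 to 5. In ventral DG it had 2.4, 3.08, 3.08 and 2.67 CPM in SH and 3.3, 2.58, 2.7, 3.9 and 3.67 CPM in EE. Every dorsal sample was above every ventral sample, a separation that 18.9% of all tested genes showed in one direction or the other. The fitted dorsal level was 3.27-fold the ventral level (95% interval 2.88 to 3.71; log2 difference 1.71, SE 0.09; adjusted p = 2.25e-13 by edgeR), and the ratio lay between 2.64 and 4.53 within each of the 9 pools.

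Tenascin-R, the trimeric glycoprotein that cross-links lecticans and is made by cells of the oligodendrocyte lineage and some interneurons, had 259, 227, 260 and 261 CPM in dorsal SH and 247, 227, 268, 248 and 243 CPM in dorsal EE. The ventral samples had 135, 164, 182 and 178 CPM in SH and 159, 145, 174, 168 and 187 CPM in EE. Here too the regions did not overlap. The dorsal level was 1.5-fold the ventral one (interval 1.39 to 1.63; log2 difference 0.59, SE 0.06; adjusted p = 7.6e-09 by edgeR). Dorsal was higher in 9 of 9 pools, which follows from the lack of overlap.

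Hapln4, also known as Bral2, a link protein that binds brevican at perisynaptic nets, went the other way. It had 37.1, 29.8, 37.7 and 36.8 CPM in dorsal SH, 40.0, 30.4, 39.1, 31.6 and 39.4 CPM in dorsal EE, 46.5, 45.9, 54.6 and 57.4 CPM in ventral SH, and 47.9, 42.7, 63.3, 53.7 and 56.4 CPM in ventral EE. The lowest ventral sample was still above the highest dorsal sample. The ventral level was 1.45-fold the dorsal one (interval 1.31 to 1.62; log2 difference -0.54, SE 0.07; adjusted p = 1.9e-06 by edgeR). Ventral was higher in 9 of 9 pools, which follows from the lack of overlap.

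Has3, a synthase that makes hyaluronan of shorter chain length than Has2, was a low-level gene in every sample. It had 1.85 to 2.16 CPM in dorsal SH, 1.61 to 2.61 CPM in dorsal EE, 0.877 to 1.38 CPM in ventral SH and 0.776 to 1.86 CPM in ventral EE, so the ranges of the regions overlapped. Dorsal was nevertheless higher in 9 of 9 pools, and the fit gave a 1.79-fold difference (interval 1.46 to 2.19; log2 0.84, SE 0.14; adjusted p = 2.45e-05 by edgeR). The end of Has3 overlaps Chtf8 on the opposite strand, and 92.4% of the fragments counted over Has3 lay on that opposite strand, so its value rests on the separation of strands.

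**Figure D3:**
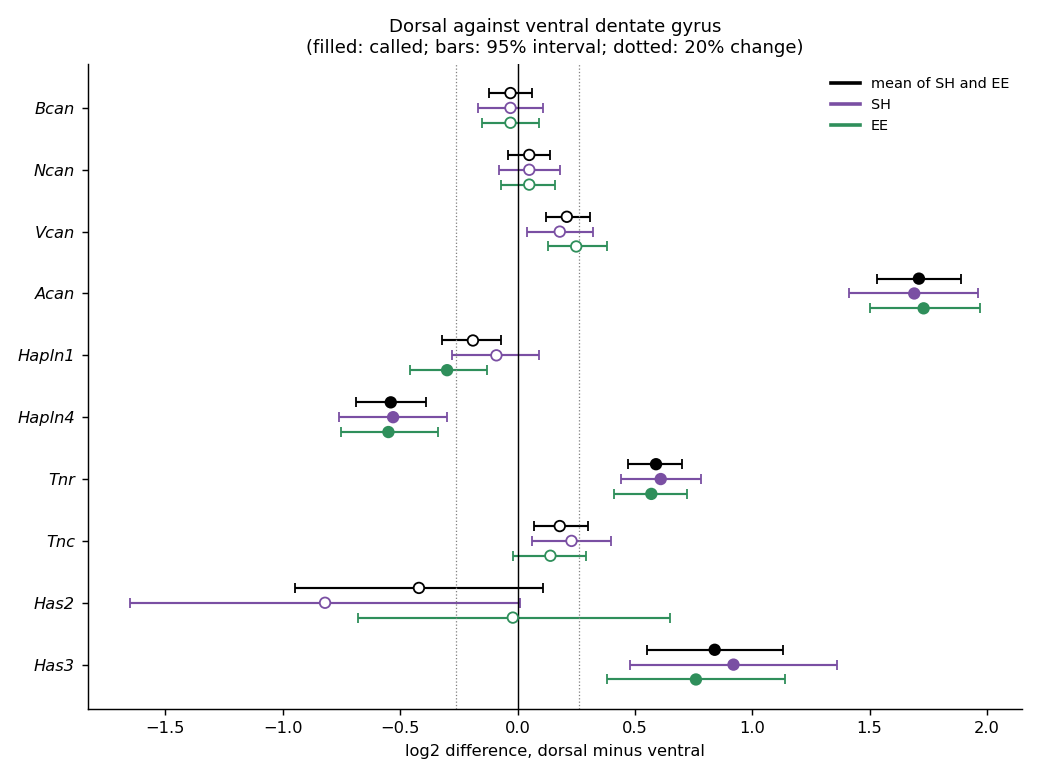
Log2 difference, dorsal minus ventral, with its 95% interval for each gene, as the mean of both housings and within SH and EE. Acan at 1.71, Has3 at 0.84 and Tnr at 0.59 lie right of zero and Hapln4 at -0.54 left of it, with the same sign in SH and in EE.

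Another 3 genes differed by region past the adjusted p but by less than 20%. Past the adjusted p alone were 7 of the 10 genes and 58.4% of all tested genes, so such differences were common. Versican, the broadly expressed lectican of loose matrix, was 1.16-fold higher in dorsal DG (log2 0.21, SE 0.04; adjusted p = 0.000297 by edgeR) and was higher there in 9 of 9 pools. Tnc, the tenascin of growing tissue and glia, was 1.13-fold higher in dorsal DG (log2 0.18, SE 0.06; adjusted p = 0.00845 by edgeR), in 8 of 9 pools. Hapln1, the link protein that stabilises aggrecan on hyaluronan, was 1.14-fold higher in ventral DG (log2 -0.19, SE 0.06; adjusted p = 0.00847 by edgeR), in 8 of 9 pools.

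The most abundant lecticans had nearly the same level in both regions. Brevican lay between 198 and 245 CPM in dorsal and between 205 and 246 CPM in ventral samples (log2 difference -0.03, 95% interval -0.12 to 0.06). Neurocan lay between 291 and 342 CPM in dorsal and between 279 and 361 CPM in ventral samples (log2 difference 0.05, interval -0.04 to 0.14). For both, the interval leaves no room for a 20% difference in either direction. Has2, the synthase of long hyaluronan chains, had between 0.128 and 0.921 CPM, and its interval of -0.95 to 0.11 on the log2 scale was too wide to place it; without SH replicate 2 it was called as lower in dorsal DG, at -0.74 (adjusted p = 0.0161 by edgeR).

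The regional differences were then measured within each housing. Within SH 4 of the 10 genes were called, against 28.3% of all tested genes, and within EE 5 of 10, against 29.8%. Acan, Tnr, Has3 and Hapln4 were called in both housings, with log2 differences of 1.69 and 1.73 for Acan and of -0.53 and -0.55 for Hapln4. The gene called in EE and not in SH was Hapln1, at -0.30 (SE 0.08; adjusted p = 0.00453 by edgeR) in EE and -0.09 (SE 0.09; adjusted p = 0.433) in SH. The test of that change itself gave -0.20 (SE 0.12; unadjusted p = 0.105, adjusted p = 1), so the housings were not shown to differ. Dorsal EE replicate 2 was the lowest Hapln1 sample, and without that pool the EE difference was -0.22 and under the 20% limit.

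Promoter sequence is shown for the 3 genes that were higher in dorsal DG in all 9 pools and have an entry in the RefSeq promoter table. Entries were found for 7 of the 10 genes (Acan, Bcan, Ncan, Vcan, Hapln1, Tnr and Tnc). Each run is the 250 bases before the RefSeq transcription start, 5′ to 3′ on the gene's strand, build GRCm38.p6, with capitals for matches to the searched motifs on either strand. The motifs were the E-box of neuronal bHLH factors in its form CAGATG and in its other common form CAGCTG, the site TGANTCA of the Fos and Jun factors, the cyclic AMP response site with its letters TGACGTCA, the TATA box in the strict form TATAAA and the GC box of Sp factors, GGGCGG.
Acan, chr7:79052976-79053225, plus strand: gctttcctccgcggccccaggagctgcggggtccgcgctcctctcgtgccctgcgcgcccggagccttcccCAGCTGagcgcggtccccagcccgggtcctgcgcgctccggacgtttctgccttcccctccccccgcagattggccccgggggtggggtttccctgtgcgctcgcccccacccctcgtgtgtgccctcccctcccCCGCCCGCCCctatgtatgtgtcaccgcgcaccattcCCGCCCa
Tnr, chr1:159523519-159523768, plus strand: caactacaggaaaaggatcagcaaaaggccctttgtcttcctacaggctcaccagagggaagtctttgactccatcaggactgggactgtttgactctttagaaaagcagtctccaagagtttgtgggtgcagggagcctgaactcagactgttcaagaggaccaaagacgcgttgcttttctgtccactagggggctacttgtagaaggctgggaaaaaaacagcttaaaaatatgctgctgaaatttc
Vcan, chr13:89742513-89742762, minus strand: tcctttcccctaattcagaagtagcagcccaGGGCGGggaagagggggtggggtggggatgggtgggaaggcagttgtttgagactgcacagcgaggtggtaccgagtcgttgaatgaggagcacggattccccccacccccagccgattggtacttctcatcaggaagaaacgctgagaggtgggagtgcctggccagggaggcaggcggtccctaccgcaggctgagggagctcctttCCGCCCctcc

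The runs of Acan and Tnr differ in base composition. Acan has 26 CpG dinucleotides and 74.4% G and C, more CpG than or as many as 91.4% of the 32851 promoters in the table, whose median is 6. Tnr has 2 CpG and 46.8% G and C, and Vcan has 10 CpG and 62.4%. The Acan run holds an E-box CAGCTG at base -179 from the start and GC boxes at -44, -40 and -7, of which the first pair overlaps, and Vcan holds GC boxes at -219 and -10. CAGCTG occurs in 13.0% of all promoters of this length and GGGCGG in 32.7%. No searched letter string is in the Tnr run. Of the motifs found in none of the 3 runs, the E-box CAGATG occurs in 14.4% of all promoters, the Fos and Jun site in 6.75%, the cyclic AMP response site in 1.55% and the TATA box in 12.4%.

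The lectican and link protein genes lie in neighbouring pairs, which the choice of genes did not use. Hapln1 (chr13:89539796-89611652) and Vcan (chr13:89655312-89742509) are 43659 bases apart, and Hapln4 (chr8:70083457-70090862) and Ncan (chr8:70093085-70120873) are 2222 bases apart. Acan (chr7:79053483-79115099) ends 2 bases from the end of Hapln3 on the other strand, and Bcan (chr3:87987531-88000230) lies 21519 bases from Hapln2, with no protein-coding gene between the members of any of the 4 pairs. The neighbours differed in their regional pattern, apart from Bcan and Hapln2, neither of which passed the adjusted p by region. Acan had a log2 difference of 1.71 and Hapln3 one of -0.80, Vcan 0.21 and Hapln1 -0.19, Ncan 0.05 and Hapln4 -0.54, and Bcan -0.03 and Hapln2 -0.12. In all 4 pairs the link protein was the partner with the lower dorsal-to-ventral ratio, by little for Bcan and Hapln2. This difference between genes was not tested.

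The second comparison asked what enriched housing does to these genes. None of the 10 was called in dorsal DG, where 0.634% of all tested genes were called, and none in ventral DG, where 0.241% were. At an unadjusted p under 0.05, edgeR gave 4 of 10 in dorsal DG, against 8.81% of all tested genes, and 0 of 10 in ventral DG, against 7.58%. The SH and EE ranges of all 10 overlapped in both regions, whereas 3.99% of all tested genes in dorsal and 2.45% in ventral DG had ranges that did not. No alternative fit, DESeq2 included, called any of the 10 in either region.

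**Figure D4:**
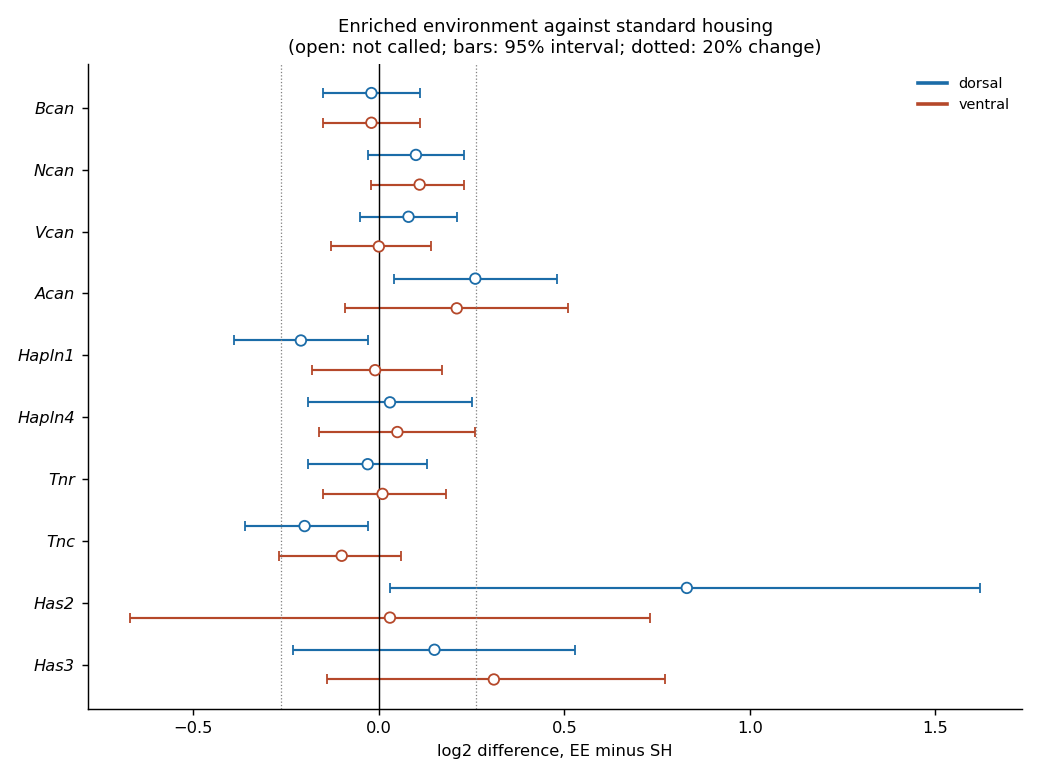
Log2 difference, EE minus SH, with its 95% interval for each gene in dorsal and ventral DG. No gene was called, and the dorsal intervals of Acan, Hapln1, Tnc and Has2 leave out zero before adjustment.

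The 4 dorsal genes had differences of both signs, and none passed the adjustment. Acan had 9.04 ± 1.52 CPM in SH (SD, n = 4) and 10.8 ± 0.94 CPM in EE (n = 5), with overlapping ranges (log2 difference 0.26, 95% interval 0.04 to 0.48; unadjusted p = 0.0223, adjusted p = 0.438 by edgeR). Dorsal SH replicate 4, at 11.3 CPM, was the SH sample inside the EE range, and without that pool the difference was 0.39 (unadjusted p = 0.00143, adjusted p = 0.155 by edgeR). In ventral DG the Acan difference was 0.21 (interval -0.09 to 0.51), and the difference between the regions' EE effects was 0.05 (interval -0.32 to 0.42).

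Hapln1 and Tnc had lower means in dorsal EE. Hapln1 had 38.3, 41.7, 47.4 and 42.1 CPM in dorsal SH and 39.2, 27.2, 37.5, 40.7 and 38.0 CPM in dorsal EE, a log2 difference of -0.21 (interval -0.39 to -0.03; unadjusted p = 0.0215, adjusted p = 0.43 by edgeR). Dorsal EE replicate 2, at 27.2 CPM, lay below all other samples, and without its pool the difference was -0.12 (adjusted p = 0.67 by edgeR). Tnc had 19.1 to 21.3 CPM in dorsal SH and 14.8 to 19.6 CPM in dorsal EE, a log2 difference of -0.20 (interval -0.36 to -0.03; unadjusted p = 0.0216, adjusted p = 0.432 by edgeR). In ventral DG, Tnc gave -0.10 (interval -0.27 to 0.06) and Hapln1 -0.01 (interval -0.18 to 0.17).

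Has2 had the widest interval of the 10 genes in dorsal DG. Its dorsal SH samples had 0.323, 0.782, 0.128 and 0.149 CPM and its dorsal EE samples 0.921, 0.539, 0.447, 0.612 and 0.524 CPM, a log2 difference of 0.83 whose interval ran from 0.03 to 1.62 (unadjusted p = 0.0418, adjusted p = 0.537 by edgeR). It held a sum of 257 counts over the 18 samples, and the difference ranged from 0.57 to 1.56 when single pools were left out.

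For the abundant genes the intervals were narrow enough to bound the housing effect. In dorsal DG the log2 difference of Bcan was between -0.15 and 0.11, that of Ncan between -0.03 and 0.23 and that of Tnr between -0.19 and 0.13. In ventral DG these intervals were -0.15 to 0.11, -0.02 to 0.23 and -0.15 to 0.18. A change of 20% or more therefore lay outside the interval for brevican, neurocan and tenascin-R in both regions. For Has3 the intervals reached from -0.23 to 0.53 in dorsal and from -0.14 to 0.77 in ventral DG, so changes of that size are not excluded; Has3 held 771 counts over the 18 samples.

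The EE effect was next compared between dorsal and ventral DG. None of the 10 genes passed, and 0.00587% of all tested genes, a single gene, did. At an unadjusted p under 0.05 the count was 0 of 10 against 3.25% of all tested genes, and DESeq2 also called none of the 10. The widest interval was that of Has2, from -0.26 to 1.87 on the log2 scale around 0.80, and the narrowest was that of Ncan, from -0.18 to 0.17 around -0.01.

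Isoforms of the matrix proteins differ in the parts that carry sugar chains or bind partners, so the abundance-weighted transcript length of each gene was compared as well. Acan, Ncan, Hapln1, Hapln4 and Has2 had a single length in all samples. Among the other 5 genes none passed the limma test at an adjusted p under 0.05 by region, where 0.948% of 11396 tested genes did, nor by housing in dorsal DG (0.00878%) or ventral DG (0%). Versican, whose long isoforms add chondroitin sulfate attachment regions, had a mean length of 7970 ± 177 bases (SD, n = 4) in dorsal SH and 7050 ± 387 bases (n = 5) in dorsal EE, without overlap of the samples (7799 to 8218 against 6681 to 7551 bases), as for 1.42% of the genes tested for length. The log2 difference was -0.18 (SE 0.06; unadjusted p = 0.0122, adjusted p = 0.93 by limma). The separation depends on the omission of dorsal SH replicate 3, whose Vcan length of 6198 bases was below every dorsal EE sample, and with all 20 samples the difference was -0.11 (SE 0.08; unadjusted p = 0.18, adjusted p = 1 by limma). Tnr, whose isoforms differ by a fibronectin type III repeat, had 7579 ± 176 bases in dorsal SH and 8231 ± 267 bases in ventral SH, and 7510 ± 352 bases in dorsal EE and 7671 ± 379 bases in ventral EE, where the samples overlapped. This gave a log2 difference by region over both housings of -0.07 (SE 0.03; unadjusted p = 0.0154, adjusted p = 0.301 by limma) and an EE minus SH difference in ventral DG of -0.10 (SE 0.04; unadjusted p = 0.018, adjusted p = 1). The left-out dorsal SH replicate 3 had a Tnr length of 8304 bases, inside the ventral SH range of 7961 to 8543 bases. With all 20 samples these differences were -0.06 (SE 0.03, unadjusted p = 0.0552 by limma) and -0.09 (SE 0.04, unadjusted p = 0.0286 by limma).

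The genes around the net were grouped into 4 further lists by their part in the matrix. They were chosen with earlier results of these data known, so their counts describe the lists and are read against the 32.7% of all tested genes called by region.

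**Figure D5:**
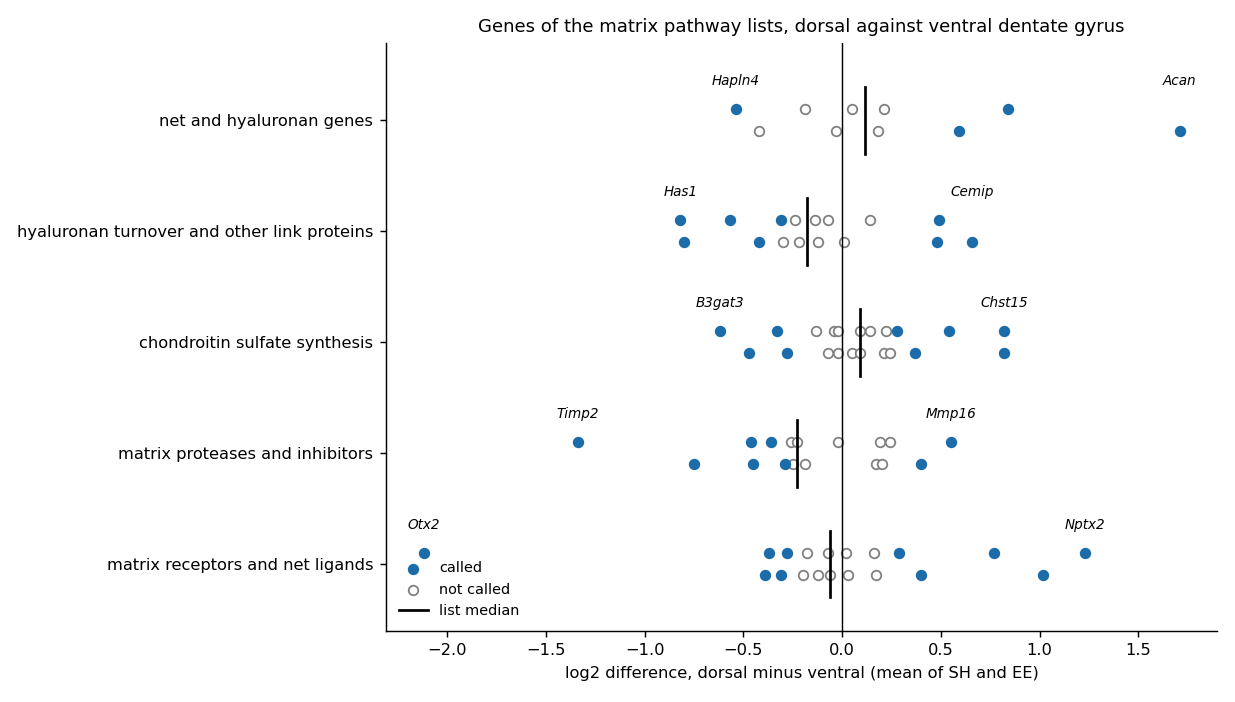
Log2 difference, dorsal minus ventral (mean of SH and EE), of each tested gene in the list of 10 and in 4 further matrix lists, with called genes filled and a bar at each list's median. Calls lie on both sides of zero in every list, and the outermost called genes are named.

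Of the 16 genes of hyaluronan turnover and the other link proteins, 8 were called by region, 3 higher in dorsal and 5 in ventral DG, with a median log2 difference of -0.18 against -0.005 for all tested genes. The hyaluronan-degrading proteins Cemip and Cemip2 were 1.58-fold and 1.39-fold higher in dorsal DG, with 60.9 ± 2.7 CPM for Cemip in dorsal SH (n = 4) and 39.9 ± 2.83 CPM in ventral SH. Hmmr, a hyaluronan-binding protein of dividing cells, was 1.4-fold higher in dorsal DG but lay under 1 CPM on average in all groups. The third synthase Has1, the link protein Hapln3 and the scavenger receptor Stab2 were higher in ventral DG by 1.76, 1.74 and 1.49-fold, at group means between 0.176 and 1.25 CPM.

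Chondroitin sulfate synthesis had 9 of 21 tested genes called, 5 higher in dorsal and 4 in ventral DG, and Chst13 was too low to be tested. Chst15, which adds the second sulfate of the highly sulfated E unit, was 1.77-fold higher in dorsal DG, with 89.1 ± 5.9 CPM in the dorsal and 50.0 ± 1.65 CPM in the ventral SH samples (log2 0.82, SE 0.04; adjusted p = 2.25e-13 by edgeR). The chain polymerase Chsy3 was 1.77-fold and the sulfotransferase Chst7 was 1.46-fold higher in dorsal DG. Of the enzymes that build the linkage region at the start of each chain, B3gat3 was 1.53-fold, Xylt1 1.38-fold, the linkage kinase Fam20b 1.26-fold and B4galt7 1.22-fold higher in ventral DG, while B3galt6 (log2 0.09; adjusted p = 0.141 by edgeR) and Xylt2 (log2 -0.07; adjusted p = 0.196) were not called.

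Matrix proteases and inhibitors had 8 of 17 tested genes called, 2 higher in dorsal and 6 in ventral DG, and Mmp3 and Timp1 were too low to be tested. Timp2, an inhibitor of matrix metalloproteinases, had the largest difference of the list, with 47.1 ± 3.69 CPM in the dorsal and 120 ± 11 CPM in the ventral SH samples (2.54-fold; log2 -1.34, SE 0.05; adjusted p = 3.14e-15 by edgeR). Adamts9, a protease that cleaves aggrecan and versican, was 1.68-fold and the inhibitor Timp4 1.38-fold higher in ventral DG. On the dorsal side were the membrane protease Mmp16, 1.46-fold, and Adamts8, 1.32-fold.

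Receptors and ligands of the net had 10 of 19 genes called, 5 in each direction. Nptx2, the activity-regulated pentraxin that gathers at synapses on net-bearing interneurons, was 2.35-fold higher in dorsal DG. Sema3a, a guidance protein held by nets, was 2.02-fold higher, from 1.32 ± 0.139 CPM in ventral SH to 2.87 ± 0.699 CPM in dorsal SH, and its receptor subunit Plxna4 1.71-fold higher, from 276 ± 32.8 to 454 ± 28.3 CPM. Otx2, a homeoprotein that nets take up, was 4.34-fold higher in ventral DG. The choroid plexus, which makes Otx2, also gave 11.9-fold more summed marker CPM there, and Otx2 is itself among the summed markers. The part of that tissue in the Otx2 value was not tested. The receptors Egfr and Ptprf were 1.31-fold and 1.3-fold higher in ventral DG.

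Nptx2 was the gene of the 4 lists that was called by housing, and it was called in both regions. It had 18.6 CPM in dorsal SH and 28.9 CPM in dorsal EE on average (log2 0.63, SE 0.09; adjusted p = 0.000643 by edgeR), and 7.24 CPM in ventral SH and 13.4 CPM in ventral EE (log2 0.90, SE 0.11; adjusted p = 0.000116). The other 72 tested genes of these lists were not called by housing in either region.

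Cell type markers moved with the regions, and their part in the differences above was not tested. Their counts are read against the 15.9% of all tested genes called as higher in dorsal and the 16.8% called as higher in ventral DG. Granule cell markers were higher in dorsal DG for 6 of 7 genes (summed level 1039 to 1274 CPM in dorsal and 516 to 766 CPM in ventral samples). Of 10 interneuron markers 1 was higher in dorsal and 4 in ventral DG, at summed levels of 674 to 809 CPM and 731 to 874 CPM. Pvalb was among the ventral ones (log2 -0.41; adjusted p = 6.34e-06 by edgeR), whereas Kcnc1, a potassium channel of fast-spiking cells, was higher in dorsal DG (log2 0.27; adjusted p = 1.49e-05). Markers of mature oligodendrocytes had 0 of 8 called by region under edgeR, with summed levels of 2222 to 3173 CPM in dorsal and 1984 to 3383 CPM in ventral samples.

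The other marker lists are read against the same shares of all tested genes, 15.9% called as higher in dorsal and 16.8% as higher in ventral DG. Habenula and thalamus markers, from tissue that borders the dorsal punch, were higher in dorsal DG for 6 of 9 genes (226 to 328 CPM against 174 to 203 CPM), with the defining genes Gng8 and Gpr151 at or under 4.35 CPM in all samples. Pyramidal and mossy cell markers had 2 of 10 higher in dorsal and 4 in ventral DG (289 to 319 CPM against 390 to 434 CPM). Precursors of oligodendrocytes had 2 of 8 markers higher in ventral DG, astrocytes 2 of 8, fibroblasts 3 of 8, microglia 1 of 8 and endothelial cells 0 of 8. Choroid plexus markers were higher in ventral DG for 12 of 12 genes, Otx2 included, with Ttr at 347 to 1304 CPM in ventral and 5.12 to 173 CPM in dorsal samples. Without the pool of dorsal SH replicate 1 the 4 called genes were called again, at log2 differences of 1.69 for Acan, 0.54 for Tnr, -0.57 for Hapln4 and 0.83 for Has3. That pool held the dorsal sample with the most choroid plexus signal, and the other ventral samples kept theirs. The part of this tissue in the differences was therefore not tested. None of these lists had a gene called by housing.

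Within groups, some pairs of the genes varied in step and others in opposite directions. Across the 18 samples the log2 CPM of Acan and Tnr had a Pearson correlation of 0.94, which includes the shared regional step, and 0.53 once each group's mean was subtracted. Hapln4 and Tnr, which differ in their regional direction, had -0.65 across all samples and 0.74 within groups. Brevican and neurocan had 0.51 and 0.76, and neurocan and Tnc 0.34 and 0.77. Brevican had -0.21 and -0.71 with Hapln4, and -0.4 and -0.64 with Tnr. These values come from 18 libraries that share depth and tissue composition, and they are given as a description only.

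Among 14105 genes with a mean of at least 1 CPM, those whose pattern over the 18 samples was most like that of Acan were B4galt5 (r = 0.985), Pitpnc1 (0.981) and Inf2 (0.98). For Tnr they were Kidins220 (0.987), Glg1 (0.986) and Celf1 (0.986), and for Hapln4 they were Acot7 (0.968), Thsd4 (0.967) and Adcy3 (0.965). A value above 0.957 for Acan, 0.963 for Tnr and 0.901 for Hapln4 was reached by the top 1% of the compared genes. Within groups that limit was 0.62 for Acan, 0.88 for Tnr and 0.852 for Hapln4. With group means subtracted, the closest were Dock11 (0.81), Pik3r3 (0.799) and Zfp110 (0.787) for Acan, Pdcd6ip (0.949), Cltc (0.942) and Sel1l (0.94) for Tnr, and Madd (0.956), Ptprn2 (0.946) and Slc25a22 (0.946) for Hapln4.

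For the lecticans of similar level in both regions the nearest genes within groups were Psd2 (0.936), Cmtm5 (0.931) and Apoe (0.93) for Bcan, and Klhl5 (0.942), Gm21992 (0.928) and Ppp1r16a (0.918) for Ncan. Vcan was closest to Nfatc1 (0.89), Slc1a4 (0.868) and the matrix glycoprotein gene Fn1 (0.856). Hapln1 was closest to Zfp758 (0.913), Gm4204 (0.899) and Snhg14 (0.898), Tnc to Sugct (0.829), Arhgap22 (0.822) and Nckap5l (0.804), and Has3 to Pik3c2b (0.839), Grk5 (0.838) and Acat2 (0.786). The top 1% of the compared genes lay above 0.861 for Bcan, 0.813 for Ncan and 0.627 for Vcan within groups. For Hapln1, Tnc and Has3 these limits were 0.729, 0.635 and 0.544. Has2 lay under the 1 CPM minimum and was not compared.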

How the data were processed

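RNA-seq of 20 dorsal and ventral DG samples was used, 18 of them in the main comparisons; 40 further samples of the series, made for DNA methylation, are not analysed here. The authors trimmed reads with Trim Galore 0.4.0, aligned them to mm10 with STAR 2.5.1b and deposited the counts per gene for each strand choice, of which the reverse-strand counts are used here. They also deposited RSEM 1.2.30 tables with expected counts, TPM, FPKM and the abundance-weighted transcript length per gene; the deposited length values were set on a log2 scale for testing. Gene names were matched for 45968 of 46480 identifiers, and coordinates are those of Gencode on GRCm38, the same build.

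Counts above 10 in 2 or more samples let a gene into the fit, made with edgeR 4.0.16 (R 4.3.3, TMM, quasi-likelihood F test, 1 mean per group), and lengths with limma 3.58.1 (robust). CPM uses TMM library sizes. The region contrast is the mean of both housings. Intervals are 95% intervals of the fit. Unassigned reads made up 32.6 to 40.9% of the fragments and stayed out of library sizes. Fits were tested on simulated data. Opposite-strand counts were 3.52 to 4.45% of the total.

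The 10 genes, the lists and the tests were chosen with earlier results of these data known. Named beside them are, per list, the 3 largest region differences in each direction and each gene called by housing, the first 2 markers of a cell type where a result turns on them, and, for each of the 10 genes, the 3 of most similar pattern. Hapln2 and Chtf8 are named for their position beside Bcan and Has3. Dorsal and ventral samples came from the same mice by the study's own description, but matching them by number is an assumption. Their deviations from group means correlated at 0.0827 on average over the 9 pools (-0.084 to 0.189). For differently numbered dorsal and ventral samples of one housing the average was -0.023 (-0.209 to 0.203). A pool block changed no call of the 10 genes. The study describes the replicates as independent pools of mice, so p-values measure the spread between pools. A possible factor shared by replicate number, of which the correlations given below are a hint, was not in the main fit. Alternatives were the RLE scaling, DESeq2 1.42.0, other filters, unstranded and expected counts, all 20 samples, blocks and single pools left out.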

Additional observations from a re-analysis of the deposited data

Results flagged for a closer look

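Of the 40 groups of 4 or 5 samples (10 genes in 4 groups), 5 held a sample whose gap to its nearest neighbour was large for the range of its group by Dixon's test, which flags about 1 group in 20 by chance. Dorsal SH replicate 2 was the lowest of its group for Tnr, at 227 CPM against 259 to 261 CPM in the other 3, and for Hapln4, at 29.8 CPM against 36.8 to 37.7 CPM. Dorsal EE replicate 2 was the highest of its group for Bcan, at 245 CPM against 198 to 211 CPM, and the lowest for Hapln1, at 27.2 CPM against 37.5 to 40.7 CPM. Dorsal SH replicate 4 was the highest of its group for Tnc, at 21.3 CPM against 19.1 to 19.5 CPM.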

How the results depend on the processing

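The region calls of Acan, Tnr, Hapln4 and Has3 held under every alternative that tested the gene, with log2 differences of 1.66 to 1.76, 0.54 to 0.62, -0.58 to -0.51 and 0.59 to 0.91. The TPM filter, which drops Acan and Has3, left 2 of the 10 genes called by region over both housings and in SH, 3 in EE, and 3448 genes overall. Single pools left out gave 4 to 5 over both housings, 4 to 6 in SH and 4 to 6 in EE, against 4, 4 and 5: Tnc was added in SH without SH replicate 2 (0.27) or 5 (0.26), Has2 in SH without SH replicate 2 (-1.46) and with unstranded counts (-1.04), and Vcan in EE without EE replicate 3 (0.27) or 5 (0.27). No alternative called any of the 10 genes by housing. Over all genes, the counts called by housing depended on the fit: in dorsal DG 172 with the replicate number as a block and 70 to 109 with single pools left out, against 108, and in ventral DG 87 with that block, 78 without the low-count filter, 75 with DESeq2, 26 with the TPM filter, 25 with ventral samples alone and 18 to 50 with single pools left out, against 41. The difference between the EE effects was called for 0 genes under the TPM filter or with any pool left out and for 2 with the pool block. The cause of these shifts was not tested. Same-numbered SH and EE samples correlated at 0.126 on average (0.0815 to 0.175, 7 of 8 over 0.1) and differently numbered ones at -0.0314 (4 of 32 over 0.1); 9 of 16 samples correlated best with their own number. These values are a hint of a factor shared by number, which no label names. The main fits do not hold such a factor, so their p-values by housing do not account for it. The number block was run as an alternative only.

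Signs of small, uncalled differences turned in some fits. With the number block Hapln4 gave -0.02 in dorsal and -0.01 in ventral DG, and Tnr -0.01 in ventral DG. With all 20 samples, Ncan gave -0.01 by region in SH and 0.06 for the difference of EE effects, and Has2 gave -0.05 by housing in ventral DG; Has2 gave 0.08 by region in EE with unstranded counts. With single pools left out, Bcan ranged from -0.07 to 0.01 by region in SH, from -0.07 to 0.02 by housing in dorsal DG and from -0.06 to 0.01 in ventral DG. Hapln4 ranged from -0.04 to 0.09 by housing in dorsal and from -0.02 to 0.12 in ventral DG. In ventral DG, Hapln1 ranged from -0.05 to 0.04, Tnr from -0.07 to 0.06 and Has2 from -0.08 to 0.15 by housing, and Has2 from -0.17 to 0.17 by region in EE. The difference between the EE effects ranged from -0.06 to 0.14 for Acan, -0.04 to 0.04 for Ncan, -0.09 to 0.05 for Hapln4 and -0.09 to 0.06 for Tnr. Has2 and Has3 held 257 and 771 counts in all.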
